A study of Mus musculus with 9 samples.

Results

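Expression of 9 genes for ion channels and pumps of the retinal pigment epithelium (RPE) was followed across the layers at the back of the mouse eye: Kcnj13, Best1, Trpm3, Atp1b1, Slc12a2, Clic6, Clcn2, Cftr and Aqp1. They were chosen by name as genes of RPE transport, with earlier results of these data known, and every non-control probe whose gene name in the array files equals one of these symbols was taken. This gave 13 probes for 9 of the 31709 genes on the array, out of 39429 probes. Trpm3 had 3 probes, Kcnj13 and Clcn2 had 2 each, and the other 6 genes had 1 each.

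The RPE is a single sheet of pigmented cells between the photoreceptors and the vessels of the choroid, joined by tight junctions, and it moves ions and water from the retinal to the choroidal side. In most epithelia the Na,K-ATPase sits on the blood-facing membrane, but in the RPE it sits on the apical membrane, which faces the photoreceptors, where it shares the membrane with the Na-K-2Cl cotransporter and with the inward rectifier that lets potassium back out. Chloride taken up on the apical side leaves through chloride channels of the opposite membrane, and water follows. Mutations of BEST1 and KCNJ13 cause inherited retinal disease in people.

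Dual-colour Agilent arrays, 9 in all, measured 3 laser-dissected samples per tissue: choroid (CH), RPE and photoreceptors (PR). The animals were female C57BL/6 mice, 6 months old within a range of 2 weeks by the sample labels (the study's methods give a younger age), with no transgene or treatment. Per the methods, each sample was cut from 1 whole eye of the J substrain, the RPE was taken away before the CH was dissected, and the sections used for the PR were thicker and stained with cresyl violet. Tissue RNA, amplified before labelling, carried the dye Cy5, and a common reference of choroid and RPE RNA carried Cy3 on all 9 arrays. A level is therefore given as log2 of Cy5 over Cy3 for one probe: 0 means as much signal as the reference, and levels of different probes cannot be set against each other. As these are bulk samples, fewer cells of a type and less RNA per cell cannot be told apart.

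The labelled tissues were checked against marker genes. All 7 RPE markers (Rpe65, Rlbp1, Lrat, Rdh5, Rgr, Rrh and Ttr) were called higher in RPE than in PR, with a median difference of 5.51, and 6 of 7 were called higher in RPE than in CH, where the median was 1.59. Rpe65, Rdh5, Rgr and Ttr were saturated on all 3 RPE arrays and on 1 to 3 CH arrays, so their differences and these medians are not exact. The same 7 were called higher in CH than in PR by a median of 3.90, so the CH samples carried the signal of RPE markers too. All 9 rod markers were called lower in RPE than in PR, and none was called between the RPE and the CH, where all 9 differences were above 0 with a median of 0.58. All 5 fibroblast markers and 4 of 7 pigment cell markers were called lower in RPE than in CH. The other pigment cell markers were not called, with Tyr at 0.68, Oca2 at 0.37 and Dct, saturated in both tissues, at -0.82. RPE replicate 2 stood apart in having 91.7% of its probes well above background, against 62.1% to 71.2% on the other arrays. Slide and tissue were partly confounded: slide 1 held 2 CH and 2 RPE arrays, slide 2 held 1 array of each tissue, and slide 3 held 2 PR arrays.

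A gene was called where limma gave an adjusted p below 0.01 and a fold change above 2.5, which is 1.32 on the log2 scale, at the gene's brightest probe. Against the PR, 6 of the 9 genes were called higher in the RPE: Kcnj13, Atp1b1, Clic6, Slc12a2, Trpm3 and Clcn2. None of the 9 was called lower, although Best1 and Aqp1 lay below the PR at an unadjusted p under 0.05. Over all genes the call was made for 10.9% in the higher direction and 5.19% in the lower, and 27.9% lay lower at an unadjusted p under 0.05. The median difference over the 9 genes was 3.11, against -0.0045 over all genes. The same 6 were called higher in CH than in PR, where the share over all genes was 12.8% higher and 6.01% lower. These 2 comparisons share the PR arrays and are not independent.

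Against the CH, 2 of the 9 genes were called higher in the RPE, namely Atp1b1 and Clic6, where the share over all genes was 0.18%. With any probe of a gene allowed to make the call, Kcnj13 and Trpm3 joined them, which made 4, and over all genes 0.218% were called in that way. None was called lower, a call made for 1.75% of all genes, and at an unadjusted p under 0.05 there were 5 genes above and 1 below, the last being Cftr. Over all genes 16.8% lay above and 16.8% below at that p. The median difference over the 9 genes was 0.98, against 0.03 over all genes. How the 9 genes lay on each array is shown in the plot by tissue.

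**Figure D1:**
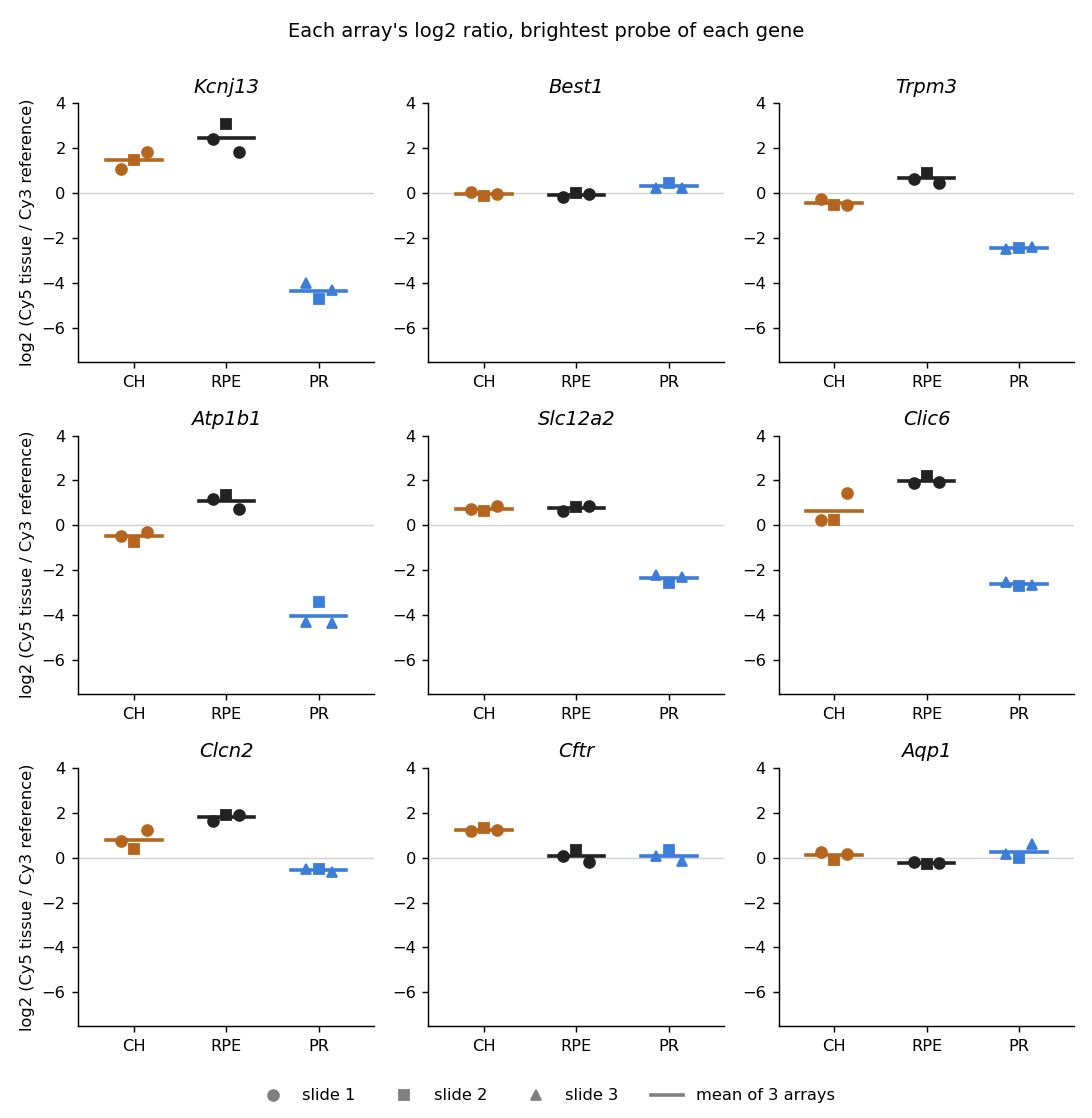
Level of each gene on each array as log2 of tissue Cy5 over reference Cy3 (y axis), at the gene's brightest probe, for CH, RPE and PR (x axis). Points are arrays, their shape is the slide and the bar is the mean of 3 arrays. The PR arrays lie below all other arrays for Kcnj13, Trpm3, Atp1b1, Slc12a2, Clic6 and Clcn2, whereas Cftr is highest in the CH and Best1 and Aqp1 stay near 0.

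Atp1b1 encodes the beta-1 subunit of the Na,K-ATPase, which carries the catalytic alpha subunit to the membrane. Its level was -0.48, -0.72 and -0.27 on the CH arrays, 1.16, 1.34 and 0.71 on the RPE arrays, and -4.28, -3.42 and -4.34 on the PR arrays. The 3 tissues did not overlap, with every RPE array above every CH array and every CH array above every PR array. The RPE exceeded the CH by 1.56 ± 0.25 (SE, limma), a fold of 2.94 with adjusted p = 0.00234. It exceeded the PR by 5.08 ± 0.25, a fold of 33.9 with adjusted p = 1.56e-07. The RPE against CH call was lost without CH replicate 2 or RPE replicate 1 or 2, with a range of 1.42 to 1.74 over the arrays left out, and also under median centring, with the Cy5 channel alone and in the authors' series table. On slide 1 alone the difference was 1.31, and on slide 2 alone it was 2.05.

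The other beta subunit genes of the pump were set beside Atp1b1. Atp1b2, known from glia and photoreceptors, was at -0.95, -0.86 and -0.26 in the CH, 0.09, -0.25 and -0.28 in the RPE and 2.29, 1.51 and 2.30 in the PR. It was called lower in RPE than in PR by -2.18 ± 0.25, the opposite direction to Atp1b1, and its RPE minus CH difference of 0.54 had an adjusted p of 0.155.

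Atp1b3, a beta subunit of many cell types, was at -0.67, -0.59 and -0.93 in the CH, -1.08, -1.64 and -1.54 in the RPE and -3.05, -3.22 and -3.12 in the PR. It was called higher in RPE than in PR by 1.71 ± 0.15. Against the CH it stood at -0.69 ± 0.15 (adjusted p = 0.0109), which missed the threshold. Atp1b1 was thus the one beta subunit called between RPE and CH. Atp1a4, the subunit of sperm, was well above background on 2 of 3 RPE arrays and on no CH or PR array, and was not called. Its mean log2 Cy5 signal was alike and near background, at 7.74 in the CH, 7.78 in the RPE and 7.73 in the PR. RPE minus CH was 0.17 (adjusted p = 0.576) and RPE minus PR was 0.14 (adjusted p = 0.559).

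**Figure D2:**
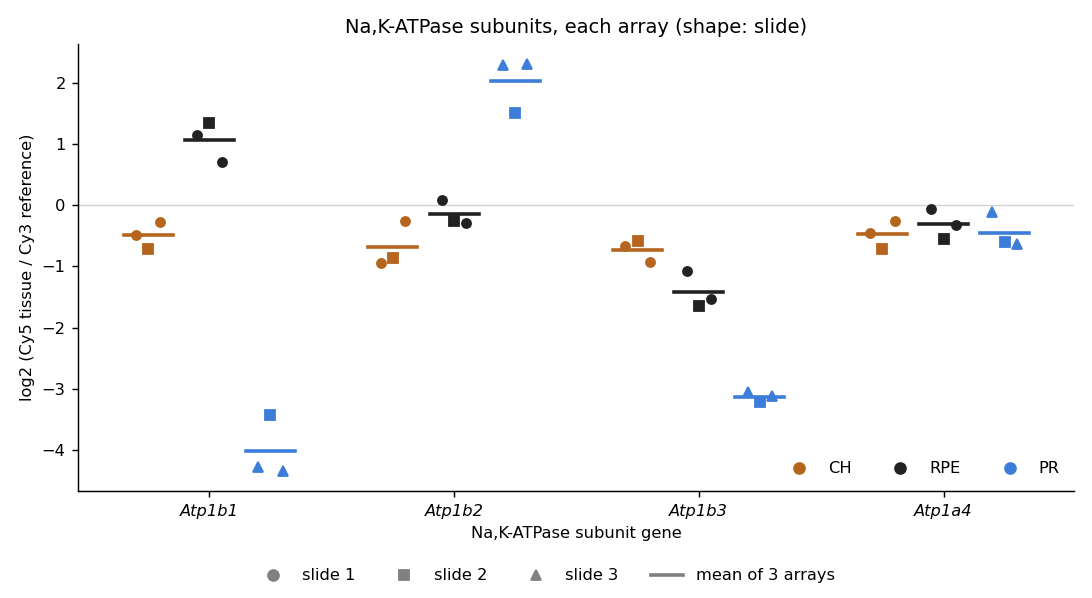
Level of Atp1b1, Atp1b2, Atp1b3 and Atp1a4 on each array as log2 of Cy5 over Cy3 (y axis), coloured by tissue, with the mean of 3 arrays as a bar and the slide as the point's shape. For Atp1b1 all RPE arrays lie above all CH arrays and the PR arrays lie lowest, and for Atp1b2 the PR arrays lie on top.

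Of the FXYD proteins, small regulators of the pump, none was called higher in RPE than in CH, and Fxyd6 was called lower by -1.67. Over the 13 genes of pump subunits and FXYD proteins, 5 were called higher and 2 lower in RPE than in PR. Fxyd5 had the largest of these among the regulators, at 2.78.

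Slc12a2 encodes the Na-K-2Cl cotransporter NKCC1, which loads the cell with chloride. Its level was 0.72, 0.65 and 0.88 in the CH, 0.64, 0.80 and 0.86 in the RPE and -2.19, -2.58 and -2.31 in the PR. The CH and RPE arrays overlapped, and both lay above all PR arrays. The RPE exceeded the PR by 3.13 ± 0.12, a fold of 8.73 with adjusted p = 3.66e-08. The RPE minus CH difference was 0.01 with adjusted p = 0.952, and its 95% interval ran from -0.26 to 0.29.

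No gene among the other cotransporters and their kinases was called between the RPE and the CH. Against the PR, Slc12a4 (the potassium-chloride cotransporter KCC1) was higher by 4.83, Slc12a8 by 2.82 and the kinase gene Wnk4 by 2.80. Slc12a5, the neuronal chloride extruder KCC2, was lower in the RPE by -3.21. Of the 15 genes in this list, 5 were called higher and 2 lower.

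Kcnj13 encodes the inward rectifier Kir7.1, which returns potassium across the apical membrane. Its second probe covers the end of the coding sequence, and the stop codon that closes an otherwise open frame is in capitals (mm9 chr1:89282991-89283050, minus strand):
Kcnj13 probe: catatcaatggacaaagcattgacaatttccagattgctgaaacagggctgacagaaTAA

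At the brightest Kcnj13 probe, which lies 72 bases downstream of that one, the level was 1.07, 1.50 and 1.83 in the CH, 2.41, 3.08 and 1.84 in the RPE and -3.98, -4.71 and -4.29 in the PR. The lowest RPE array was only just above the highest CH array, and the PR arrays were far below both. RPE exceeded PR by 6.77 ± 0.31, a fold of 109 with adjusted p = 9.7e-08, which was the largest difference among the 9 genes. RPE exceeded CH by 0.98 ± 0.31 (95% interval 0.27 to 1.68, adjusted p = 0.0514), which missed both thresholds. It was 0.62 under median centring, 0.42 with the Cy5 channel alone and 0.36 in the authors' series table. Cy5 was saturated at this probe on RPE replicates 1 and 2, so these RPE values are not exact.

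The second Kcnj13 probe was saturated on RPE replicate 2 alone and gave larger differences. Its level was 1.36, 1.65 and 1.81 in the CH, 3.16, 3.73 and 2.43 in the RPE and -4.31, -4.95 and -4.47 in the PR. The RPE exceeded the CH by 1.50 ± 0.30, a fold of 2.83 with adjusted p = 0.00626, and the PR by 7.68 ± 0.30, a fold of 206. The call against the CH held in 12 of 22 alternatives that gave a value. It was lost under median centring, with the Feature Extraction log ratio, with only the arrays of both tissues, with the replicate block and with the Cy5 channel alone, where the difference was 0.47 (adjusted p = 0.187). It was also lost in 5 of the 9 fits that left out an array (replicates 1 and 2 of the CH, 1 and 2 of the RPE, and PR replicate 3), with a range of 1.19 to 1.84.

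Kcnj13 was the inward rectifier with the largest difference to the PR. Over the 17 genes of this family and its sulfonylurea receptors, 4 were called higher and 1 lower in RPE than in PR, and none was called against the CH. Kcnj8 and Abcc9, which together form the channel of smooth muscle and pericytes, were higher by 3.17 and 2.84, and Kcnj8 was well above background on 1 of 3 PR arrays. Kcnj14 was lower by -2.33. Among 38 other potassium channels, 7 were called higher than in the PR and 3 lower, and 2 were lower than in the CH. Of the 3, Kcne2 had 1 PR array in the fit, as its spots on the others were marked as outliers. In RPE, Kcnq1 was at least 14.6-fold higher than in PR, where it was not well above background on any array (adjusted p = 1.2e-08). Kcnv2, a subunit of photoreceptor potassium channels, was lower by -4.17. Kcna1 was lower than in the CH by -2.19.

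Clic6, a protein of the chloride intracellular channel family, was at 0.26, 0.23 and 1.44 in the CH, 1.87, 2.18 and 1.94 in the RPE and -2.53, -2.69 and -2.66 in the PR. The 3 tissues did not overlap, although CH replicate 3 lay close to the RPE arrays and far from the other CH arrays. The RPE exceeded the CH by 1.35 ± 0.28, a fold of 2.55 with adjusted p = 0.00722, and the PR by 4.62 ± 0.28, a fold of 24.6 with adjusted p = 4.99e-07. The call against the CH sat at the fold threshold. It held in only 1 of 9 fits that left out an array, the one without CH replicate 3, with a range of 1.14 to 1.75.

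The other CLIC genes lay on both sides of 0 between the RPE and the CH. Clic1 was at -1.03 ± 0.17 and Clic4 at -1.14 ± 0.24 for RPE minus CH (adjusted p = 0.00224 and 0.00849), both short of the fold threshold, while Clic5 was at -0.32 and Clic3 at 0.38 (adjusted p = 0.0184). Clic1, Clic4 and Clic5 were called higher in RPE than in PR, by 3.05, 2.72 and 3.16.

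Clcn2 encodes the chloride channel ClC-2, loss of which leads to retinal degeneration in mice. Its level was 0.73, 0.37 and 1.23 in the CH, 1.62, 1.90 and 1.87 in the RPE and -0.50, -0.53 and -0.63 in the PR. No tissues overlapped, and CH replicate 3 again lay nearest the RPE. The RPE exceeded the PR by 2.35 ± 0.19, a fold of 5.09 with adjusted p = 3.69e-06. It exceeded the CH by 1.02 ± 0.19, a fold of 2.03 with adjusted p = 0.00433, which passed the test and missed the fold threshold. The second probe, 319 bases away, gave 2.25 ± 0.16 and 1.08 ± 0.16 for these comparisons.

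Of the 11 CLC genes including the partner subunit Ostm1, 3 were called higher in RPE than in PR. Ostm1, which pairs with the lysosomal exchanger ClC-7, was higher by 2.32 and stood at 1.00 (adjusted p = 0.00247) against the CH. Among the volume-regulated anion channel genes, Lrrc8c and Lrrc8a were higher than in the PR by 2.23 and 1.39.

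Best1 encodes bestrophin-1, the calcium-activated chloride channel for which the RPE is best known, and its single probe gave almost no signal. The probe is shown because the result rests on it alone, and its sequence is open in all 3 reading frames (mm9 chr19:10071517-10071576, minus strand):
Best1 probe: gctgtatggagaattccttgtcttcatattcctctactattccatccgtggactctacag

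The Best1 level was 0.05, -0.13 and -0.05 in the CH, -0.16, 0.01 and -0.02 in the RPE and 0.25, 0.45 and 0.24 in the PR. The probe was well above background on no CH array, on 1 of 3 RPE arrays (replicate 2) and on 1 of 3 PR arrays. The PR arrays lay above all others, with a RPE minus PR difference of -0.37 ± 0.10 and adjusted p = 0.0106, and the RPE and CH arrays overlapped (adjusted p = 0.95). With most arrays near background, no fold is given for Best1.

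Best2 and Best3 were both well above background on all 3 RPE arrays. Best2 was so on all CH and PR arrays too, and was not called (RPE minus CH 0.35, RPE minus PR 0.29). Best3 was at 0.81, 0.35 and 1.07 on the RPE arrays, -0.17, -0.18 and -0.14 on the CH arrays and -0.91, -0.53 and -1.11 on the PR arrays. All 3 RPE arrays and none of the others had its probe well above background. In RPE, Best3 was at least 1.81-fold higher than in PR (adjusted p = 6.66e-05) and at least 1.59-fold higher than in CH (adjusted p = 0.00834), where it was not called.

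In the same list of 13 bestrophin and anoctamin genes, 3 were called higher and 1 lower in RPE than in PR. Ano1, a calcium-activated chloride channel of secretory epithelia and smooth muscle, was higher than in the PR by 3.33, and lower than in the CH by -1.32 ± 0.16 (adjusted p = 0.000546), just short of the fold threshold. Ano2, the anoctamin of photoreceptor terminals, was lower than in the PR by -3.07.

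Cftr encodes the chloride and bicarbonate channel mutated in cystic fibrosis. Its probe ends at a stop codon, in capitals, that closes an open frame (mm9 chr6:18270974-18271033, plus strand):
Cftr probe: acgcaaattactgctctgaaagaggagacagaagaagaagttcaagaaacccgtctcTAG

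Of the 9 genes, Cftr was the one with an adjusted p below 0.01 on the side of the CH. Its level was 1.17, 1.32 and 1.25 in the CH, 0.09, 0.34 and -0.22 in the RPE and 0.08, 0.34 and -0.15 in the PR. All CH arrays were above all others, and the RPE and PR arrays covered the same range. The RPE minus CH difference was -1.18 ± 0.16 (95% interval -1.54 to -0.82, adjusted p = 0.00102), a fold of 2.26, so the test was passed and the fold threshold was not. The RPE minus PR difference was -0.02, with an interval from -0.38 to 0.34 and adjusted p = 0.928.

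None of the 7 genes listed as CFTR partners was called between RPE and CH. Of the 8 genes in that list, Cftr included, 3 were called higher in RPE than in PR. Ezr, for the microvillus linker ezrin, was higher by 5.40 and stood at 1.19 against the CH (adjusted p = 0.00245). Slc9a3r1, for the scaffold that joins CFTR to ezrin, was higher by 3.79, and Slc9a3r2 by 3.58. Slc26a6, an anion exchanger, was lower than in the PR by -1.51.

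Trpm3 encodes a cation channel opened by heat and by pregnenolone sulfate, and its gene also carries the microRNA miR-204 in an intron. At the brightest of the 3 probes the level was -0.25, -0.53 and -0.54 in the CH, 0.66, 0.92 and 0.48 in the RPE and -2.49, -2.42 and -2.37 in the PR. No tissues overlapped at any of the 3 probes. The RPE exceeded the PR by 3.11 ± 0.13, a fold of 8.65 with adjusted p = 5.18e-08. It exceeded the CH by 1.12 ± 0.13, a fold of 2.18 with adjusted p = 0.000477, below the fold threshold.

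The Trpm3 probes differed in size of effect but not in order of tissues. The second probe, 2586 bases downstream, was at -1.71, -1.82 and -1.89 in the CH, -0.32, -0.48 and -0.54 in the RPE and -4.88, -4.85 and -5.10 in the PR. It gave 1.36 ± 0.11 against the CH, a fold of 2.57 with adjusted p = 9.56e-05, and 4.49 ± 0.11 against the PR, a fold of 22.5. That call against the CH held in 20 of 23 alternatives and was lost under median centring and without CH replicate 3 or RPE replicate 1, with a range of 1.30 to 1.41 over the arrays left out. The third probe, a further 156633 bases downstream, gave 1.15 ± 0.18 and 3.09 ± 0.18.

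**Figure D3:**
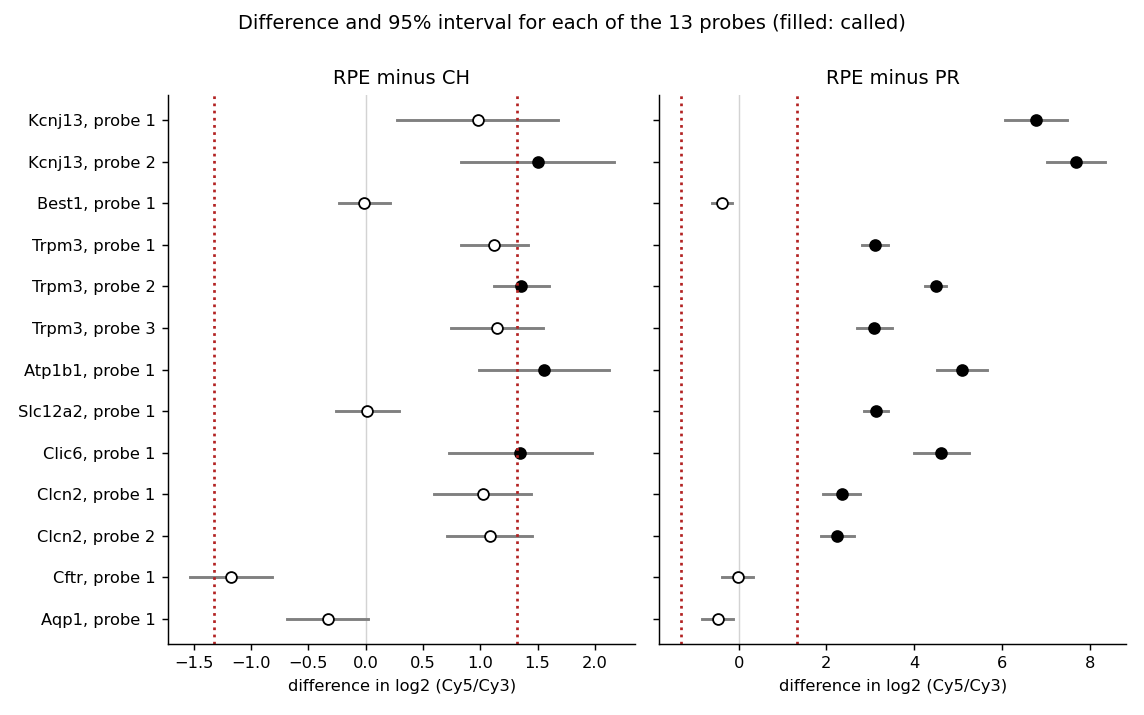
Difference in log2 (Cy5/Cy3) between RPE and CH (left) and between RPE and PR (right) on the x axis for each of the 13 probes, with the 95% interval from limma as a line. Filled points passed both thresholds and dotted lines mark a fold of 2.5. Against the PR 6 genes lie to the right of the threshold by every probe, and against the CH the intervals of the called probes reach below it.

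Among the 25 TRP channel genes on the array, 9 were called higher and 1 lower in RPE than in PR. Trpv4, a channel opened by swelling of the cell, was higher by 4.05 and stood at 0.77 (adjusted p = 0.00422) against the CH. Mcoln3 and Trpm1, both known from melanocytes, were higher than in the PR by 4.42 and 3.14 but lower than in the CH, Mcoln3 by -2.01 with a call and Trpm1 at -1.08 without one. Beside these, 4 of 7 pigment cell markers were called lower in RPE than in CH, while Tyr (0.68) and Oca2 (0.37) lay above 0. The part of pigment cells in the values of Mcoln3 and Trpm1 was not tested. Of 18 voltage-gated calcium channel genes, 2 were higher and 4 lower than in the PR. Cacna1c was higher by 3.25, and Cacna1f, the channel of photoreceptor synapses, was lower by -2.55.

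Aqp1 encodes a water channel of epithelia, endothelium and red blood cells. Its level was 0.24, -0.10 and 0.17 in the CH, -0.18, -0.28 and -0.23 in the RPE and 0.15, -0.01 and 0.60 in the PR. The probe was well above background on all 9 arrays, and the RPE arrays were below all others by a small margin. The RPE minus CH difference was -0.33 ± 0.16 (95% interval -0.68 to 0.02, adjusted p = 0.172), and the RPE minus PR difference was -0.47 ± 0.16 (adjusted p = 0.0295). Among 12 aquaporins the one called was Aqp11, an aquaporin of intracellular membranes, higher in RPE than in PR by 3.28 and at 0.62 (adjusted p = 0.00734) against the CH.

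The 9 genes were set beside the markers of cell types. For RPE minus CH, the RPE markers that were not saturated in the CH, Rrh, Rlbp1 and Lrat, stood at 1.61, 1.76 and 1.90, and Lrat was saturated on 1 RPE array. Below them lay, at the brightest probe, Atp1b1 at 1.56, Clic6 at 1.35, Trpm3 at 1.12, Clcn2 at 1.02 and Kcnj13 at 0.98. That Kcnj13 probe was saturated on 2 RPE arrays. The second probes gave 1.50 for Kcnj13, 1.36 for Trpm3 and 1.08 for Clcn2, and the third Trpm3 probe 1.15. With the saturated ones included, the 7 RPE markers ran from 1.34 to 1.90, a range that holds Atp1b1 and Clic6. For RPE minus PR the 7 RPE markers ran from 4.13 to 7.35, and the lowest, Ttr and Rgr, were saturated on all 3 RPE arrays. At the brightest probe Slc12a2, Trpm3 and Clcn2 lay below that range at 3.13, 3.11 and 2.35. The second Trpm3 probe lay within it at 4.49 and the third below it at 3.09. Markers of other cell types were called higher in RPE than in PR as well. They were 6 of 7 for endothelium (median 3.05), 5 of 5 for fibroblasts (3.93) and 7 of 7 for pigment cells (3.17). For smooth muscle and pericytes they were 4 of 5 (2.23), while all rod and cone markers were called lower. The part of these cell types in the RPE minus PR differences was not tested. For RPE minus CH, Slc12a2 at 0.01 lay among the endothelium markers, whose median was 0.06, and near the median over all genes of 0.03. Cftr at -1.18 lay between the medians of the smooth muscle and pericyte markers (-0.87) and of the pigment cell markers (-1.54). The macrophage and leukocyte markers had a median of -0.79 and ran from -1.16 to 0.53. The part of any of these cell types in the Slc12a2 and Cftr values was not tested. The RPE markers lay higher in RPE than in CH together with Atp1b1, Clic6, Trpm3, Clcn2 and Kcnj13, and their part in those differences was not tested.

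**Figure D4:**
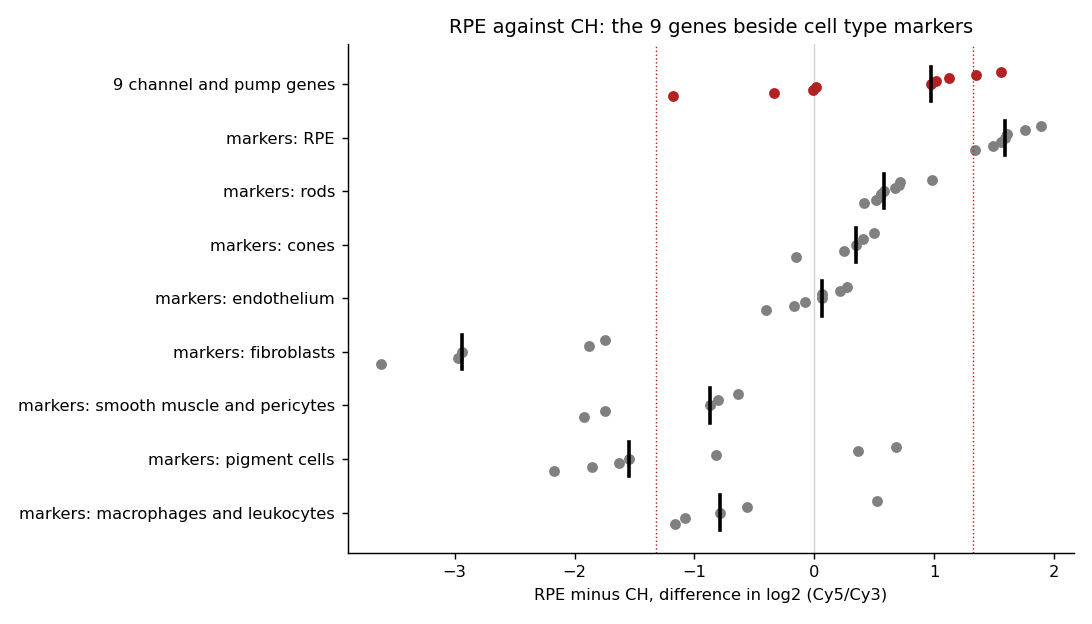
RPE minus CH difference in log2 (Cy5/Cy3) on the x axis for the 9 genes (red) and for marker genes of 8 cell types (grey), 1 point per gene at its brightest probe, with the median as a black bar and dotted lines at a fold of 2.5. Atp1b1, Clic6, Trpm3, Clcn2 and Kcnj13 lie on the side of the RPE markers, of which 4 were saturated on all RPE arrays. Cftr lies on the side of the fibroblast, smooth muscle and pericyte markers. Most pigment cell markers and most macrophage and leukocyte markers lie on that side too.

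Taken over the 13 lists of related channels and transporters, 177 genes other than the 9 were measured. None of the 177 was called higher in RPE than in CH by limma, and 6 (3.39%) were called lower, where the shares over all genes were 0.18% and 1.75%. At an unadjusted p under 0.05, 34 lay higher and 42 lower, and over all genes 16.8% lay on each side. Against the PR, 42 (23.7%) were called higher and 20 (11.3%) lower, beside 10.9% and 5.19% of all genes. All 9 calls in the list of photoreceptor channels and exchangers, which has 10 genes, were lower in RPE than in PR, with a median of -2.52.

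For each gene the 3 genes with the most similar levels over the 9 arrays were found by the root mean square difference of the centred log2 ratios, over 23101 genes. For Kcnj13 these were Wls, Tlcd4 and Cfhr2, at 0.32 to 0.33. For Atp1b1 they were Slc7a10, Car12 and Jakmip2, at 0.26 to 0.28, and for Clic6 they were Slc1a1, Cntnap4 and Clu, at 0.09 to 0.19. Trpm3 was closest to Tspo at 0.08, Clcn2 to B3galt5 at 0.11, Slc12a2 to Nnt at 0.11, Cftr to Hif3a at 0.08 and Aqp1 to Mybbp1a at 0.10. Best1, whose probe was near background, is left out.

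Promoter windows from RefSeq (GRCm38.p6, 250 bases before to 50 after a gene's start) were found for 7 of the 9 genes, 8 windows in all. The windows of the genes called higher in RPE than in both other tissues at one probe or more are shown up to the start, with every match to the general E-box CANNTG in capitals. Clic6 was also called so, but no window was found for it. E-boxes are bound by basic helix-loop-helix factors such as MITF and OTX2 binds TAATCC-like sites, and both factors are needed for the RPE to form.
Kcnj13, chr1:87394730-87394979, minus strand: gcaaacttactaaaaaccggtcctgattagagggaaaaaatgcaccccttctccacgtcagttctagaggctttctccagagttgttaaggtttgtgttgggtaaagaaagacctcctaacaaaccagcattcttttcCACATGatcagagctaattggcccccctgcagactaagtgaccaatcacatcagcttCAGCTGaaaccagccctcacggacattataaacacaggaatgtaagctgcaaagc
Atp1b1, chr1:164458356-164458605, minus strand: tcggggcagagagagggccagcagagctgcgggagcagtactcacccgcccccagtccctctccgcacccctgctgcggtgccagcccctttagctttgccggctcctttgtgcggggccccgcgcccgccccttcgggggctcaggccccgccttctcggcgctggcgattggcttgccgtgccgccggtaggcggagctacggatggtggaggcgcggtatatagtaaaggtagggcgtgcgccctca
Trpm3 first window, chr19:22138796-22139045, plus strand: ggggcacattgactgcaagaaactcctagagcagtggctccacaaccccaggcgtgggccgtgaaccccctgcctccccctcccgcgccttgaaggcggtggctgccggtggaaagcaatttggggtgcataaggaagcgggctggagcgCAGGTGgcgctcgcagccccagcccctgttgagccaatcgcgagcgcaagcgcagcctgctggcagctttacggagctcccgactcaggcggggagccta
Trpm3 second window, chr19:22447958-22448207, plus strand: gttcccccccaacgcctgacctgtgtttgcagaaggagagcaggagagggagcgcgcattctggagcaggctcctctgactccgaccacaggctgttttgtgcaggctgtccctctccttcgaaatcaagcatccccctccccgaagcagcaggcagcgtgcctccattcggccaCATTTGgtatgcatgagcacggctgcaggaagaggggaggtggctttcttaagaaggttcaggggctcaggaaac

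On both strands, the E-box CATGTG, which the line above shows by its other strand, was found in the Kcnj13 window alone, 112 bases before the start, and 14.2% of all 32851 windows in the table hold it. It overlaps the general E-box CANNTG by definition, which 72.3% of all windows hold. CANNTG was in the windows of 6 of the 7 genes, Atp1b1 being the exception. CACGTG, held by 7.15% of all windows, was in none of the 8. TAATCC, held by 7.06%, was in the Best1 window alone, 227 bases before the start. These matches describe letters in a window and no binding was measured.

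Over the alternatives of processing, the RPE against CH difference of Atp1b1 ran from 1.18 to 1.81 and passed both thresholds in 17 of 23, and that of Clic6 ran from 0.70 to 1.75 and passed in 9 of 23. Cftr ran from -1.73 to -1.03 and passed as lower in 2 of 23, under median centring and under scaling between arrays. The calls of all 6 genes for RPE against PR held in every alternative run.

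Every called difference kept its sign within the slides that held both tissues. The RPE minus CH difference of Slc12a2, which was not called, was -0.053 on slide 1 and 0.15 on slide 2. On slide 1, with 2 arrays of each tissue, RPE minus CH was 0.68 for Kcnj13, 0.96 for Trpm3, 1.05 for Clic6, 0.77 for Clcn2 and -1.27 for Cftr. On slide 2, with 1 array of each, it was 1.57, 1.45, 1.94, 1.53 and -0.98 in the same order, and the RPE array there is replicate 2. RPE minus PR on slide 2 was 7.78 for Kcnj13, 4.76 for Atp1b1, 4.87 for Clic6, 3.38 for Slc12a2, 3.35 for Trpm3 and 2.42 for Clcn2. These within-slide values have no test.

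**Figure D5:**
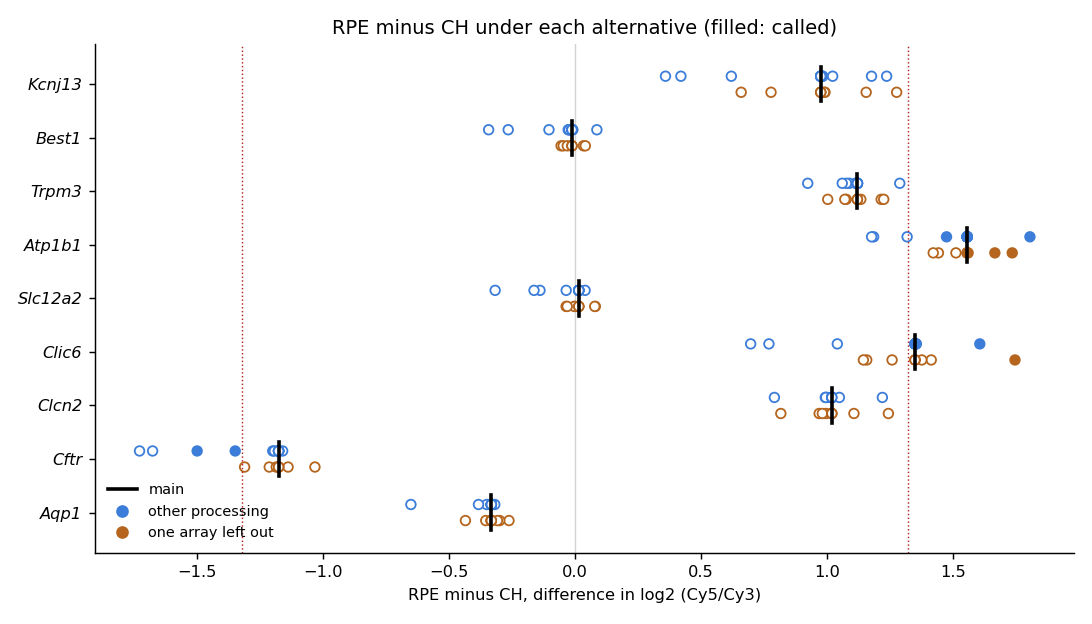
RPE minus CH difference in log2 (Cy5/Cy3) on the x axis for each of the 9 genes under the alternatives of processing (blue) and with 1 array left out (brown), with the reported value as a black bar. Filled points passed both thresholds, which happened for Atp1b1, Clic6 and, on the lower side, Cftr.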

How the data were processed

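The authors deposited Agilent Feature Extraction 9.5.3.1 output for 9 dual-colour arrays, in which mean signal and local background are intensities as scanned. Its ratio column, as deposited, is the log10 of dye-corrected Cy5 over Cy3. The series table of the authors has Cy5 values on a log2 scale (correlation of 0.985 to 0.999 with the log2 Cy5 signal on each array; median 9.38 to 9.55), with its normalization not given in the sources used here. Both served as alternatives.

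Background was corrected with normexp (offset 50), ratios were normalized by loess within arrays with control and outlier spots at weight 0, and spots of a probe were averaged. Tissue means over all 9 arrays were fitted with limma 3.58.1 (R 4.3.3), with Benjamini-Hochberg adjustment over 39429 probes, after the script had been tested on simulated data. Errors are SEs of the difference with n = 3 arrays per tissue. The spread of a probe was estimated over all tissues together and moderated by limma towards that of all probes. Whether the 3 eyes of a tissue came from separate mice is not given. The p-values therefore rest on the spread between these samples, which may not be that between mice.

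The brightest probe of a gene had the highest mean log2 Cy5 after loess and Aquantile. An "at least" fold set the brighter tissue's mean against, per array, the higher of the dim probe's signal and the lowest signal among probes well above background. Probes were named through RefSeq (GRCm38.p6): 26049 through their accession, 3200 through a current symbol and 930 through a former one, and 9250 kept the files' name. The files do not name the build of their probe positions, taken here as mm9. The rule named all 9 genes, the pump subunits and up to 3 genes with the largest called difference per list, direction and comparison, with others named for a stated value. Part of what it chose is not reported here. The members and the 13 lists were chosen with earlier results of these data known. Human data were not analysed here. Python 3.11.15, numpy 2.4.6, pandas 2.3.3 and matplotlib made counts and figures.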

Additional observations from a re-analysis of the deposited data

How the results depend on the processing

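The calls of 6 genes as higher in RPE than PR and of 6 as higher in CH than PR kept their number within 1.5 times under every alternative, and Clcn2 in CH against PR, at the threshold, was the gene that lost its call there (without CH replicate 3 or PR replicate 3, and under 7 settings). The count of genes called higher in RPE than CH, which was 2, changed with the processing. It fell to 0 under median centring, with Cy5 alone and in the authors' series table. It fell to 1 with the Feature Extraction log ratio, with only the arrays of both tissues and with slide as a fixed block. It rose to 4 at a fold above 2 or with any probe of a gene, and ranged from 0 to 2 with each array left out. The count lower in RPE than CH went from 0 to 1, Cftr, under median centring, scaling between arrays and a fold above 2. With the replicate block it stayed at 2 higher and 0 lower, and the second Kcnj13 probe lost its call. Whether the replicate numbers pair the samples is not known. Between tissues, deviations of arrays with the same number correlated at -0.0770 to 0.288, and those with different numbers at -0.313 to 0.246. These ranges overlap, and the arrays numbered 2 also share slide 2, so the correlations cannot decide it. The cause of the changes in these counts was not tested.

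Values near 0 changed sign. Best1 RPE minus CH, -0.01, became 0.087 under median centring and ranged from -0.055 to 0.041 with an array left out. Slc12a2 RPE minus CH, 0.01, became -0.32 under median centring, -0.035 with the Feature Extraction log ratio, -0.14 with Cy5 alone and -0.16 in the series table, and ranged from -0.036 to 0.080. Cftr RPE minus PR, -0.02, became 5.4e-06 under scaling, 0.20 with Cy5 alone and 0.18 in the series table, and ranged from -0.16 to 0.12. Aqp1 CH minus PR, -0.14, ranged from -0.27 to 0.035.

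Over all genes, 57 were called higher in RPE than CH, against 9 under median centring, 17 with Cy5 alone, 15 in the series table, 169 under scaling, and 15 to 151 with an array left out, and 555 were called lower, against 1047, 422, 335 and 867. Lower in RPE than PR were 1645, against 2810 with the Feature Extraction log ratio, where 55.9% of calls were higher instead of 67.8%, and in CH against PR 56.4% instead of 68.0%.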
